A study of Mus musculus with 16 samples.

Results

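Proteasome subunit genes were read here in ribosome-protected mRNA fragments (footprints) and in cytoplasmic RNA of adult mouse neural stem cells with or without Fmr1. They were taken as every gene whose symbol begins with Psma, Psmb, Psmc, Psmd, Psme, Psmf or Psmg followed by a digit, which gave 50 of the 20409 genes listed. All were from male FVB/N mice: Fmr1 knockout (Fmr1-/y, here KO) animals and wild-type (WT) littermates, 8 to 10 weeks old, whose dentate gyrus supplied the stem cells. The cells were expanded in culture with 20 ng/ml EGF and 20 ng/ml FGF2, so they stand for the dividing cell in vitro and not for the cell in its niche. There were 4 libraries each of KO footprints, WT footprints, KO RNA and WT RNA, from independently isolated cultures numbered 1 to 4, and the lysate of a culture was split between the assays. All cells, WT included, received 100 µg/ml cycloheximide for 10 min before lysis, footprints came from the monosome fraction after RNase A and T1 digestion, and RNA was amplified with a NuGEN Ovation V2 kit. Footprint libraries 1 and 2 carried 5 nt random identifiers and libraries 3 and 4 carried 8 nt identifiers.

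The 26S proteasome degrades proteins tagged with ubiquitin. Its 20S core is a barrel of stacked alpha and beta rings, with the cutting sites inside the beta rings. The 19S particle that caps the barrel has a base, whose ATPase ring unfolds the substrate, and a lid, which removes the ubiquitin chain. Alternative caps such as PA28 and PA200 can replace the 19S particle, interferon-induced beta subunits can replace the constitutive catalytic ones, and dedicated chaperones guide assembly. Within the core, and within the 19S particle, the subunits sit at equal numbers, so evenness of footprints within each can be read against a known stoichiometry. Equal numbers between the core and the 19S particle are not assumed here, since other caps can replace the 19S particle. Fmr1 encodes FMRP, which binds mRNA and ribosomes, and silencing of the human gene causes fragile X syndrome.

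The 50 symbols comprised 7 alpha and 7 constitutive beta subunits of the core, 3 immunoproteasome beta subunits, 6 base ATPases, 3 non-ATPase base subunits, 8 lid subunits, 5 genes of activators and inhibitor, 3 base chaperones and 4 core chaperones. Psma8, the testis alpha subunit, and Psmb11, the thymus beta subunit, made up the tissue-restricted core genes. Psmc3ip was matched by spelling alone, since it encodes a meiotic recombination factor, and Psme2b is a retrocopy of Psme2. After the filter on low counts 46 were tested in each comparison, and Psma8, Psmb11, Psme2b and Psmb8 were not. Levels below are TPM (a gene's share of all transcripts after division by length), rounded to whole numbers in the deposited file. Whether that length was of the whole transcript or of its coding part was not established here. Fold changes are from counts, which follow length as well as abundance, unless TPM is named.

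Promoter sequences were matched to RefSeq annotation for 42 of the 50 genes and searched on both strands from 250 bases before to 50 bases after the annotated start. The antioxidant response element core TGACNNNGC, the element of the NRF1 factor (Nfe2l1) that raises proteasome genes in stressed cells, was present in 6 of 42 (14.3%), against 17.1% of the 8377 tested genes with a promoter. CCAAT, the box bound by NF-Y, was present in 15 of 42 (35.7%), against 43.6%. By class it was in 5 of 7 alpha, 1 of 4 constitutive beta, 2 of 5 ATPase, 1 of 6 lid and 0 of 3 core chaperone promoters. TTCNNNGAA, the interferon gamma activated site bound by STAT factors, was present in 3 of 42 (7.14%), against 8.14%. By class TGACNNNGC was in 2 of 4 constitutive beta and 0 of 7 alpha promoters. For each of the 3 motifs the share was lower in the proteasome promoters than in those of all tested genes. Against all genes with a promoter, tested or not, it was lower for CCAAT and TTCNNNGAA but not for TGACNNNGC. Counts were small, and whether these differences exceed chance was not tested. The 3 stretches below show where the motifs lay for a catalytic subunit, an assembly chaperone and an interferon-inducible subunit. Each is the 120 bases before the RefSeq start (GRCm38.p6), written 5′ to 3′ on the gene's strand with the motif in capitals.
Psmb5, chr14:54617996-54618115, minus strand, TGACNNNGC beginning 47 bases before the start: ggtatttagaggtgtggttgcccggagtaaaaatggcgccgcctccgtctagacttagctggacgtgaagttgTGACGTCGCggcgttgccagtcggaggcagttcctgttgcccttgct
Psmd9, chr5:123228070-123228189, plus strand, TGACNNNGC beginning 31 bases before the start: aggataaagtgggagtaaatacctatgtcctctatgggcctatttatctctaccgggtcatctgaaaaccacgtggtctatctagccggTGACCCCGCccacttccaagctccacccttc
Psmb8, chr17:34198075-34198194, plus strand, TTCNNNGAA beginning 97 bases before the start: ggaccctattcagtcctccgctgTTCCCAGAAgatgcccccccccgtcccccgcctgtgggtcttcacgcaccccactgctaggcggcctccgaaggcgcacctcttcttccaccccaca
A match says only that the letters occur there, and no binding was measured.

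Libraries held 10553216 to 17147612 counts in KO footprints, 9397586 to 13713753 in WT footprints, 5968537 to 6580305 in KO RNA and 5330018 to 6425205 in WT RNA. Fmr1 had footprint TPM of 13, 14, 6 and 7 in KO and 71, 76, 70 and 68 in WT, and RNA TPM of 5, 20, 6 and 2 in KO and 26, 73, 20 and 14 in WT. Its footprint levels did not overlap between genotypes, whereas 1 KO RNA value reached the WT range. The KO over WT log2 difference was -2.93 (SE 0.22, edgeR adjusted p = 0.0140) in footprints and -1.99 (SE 0.67) in RNA, where it did not pass. Of 12 markers of neural stem and progenitor cells, 11 were detected and Prom1 was at 0, and the summed microglial markers stayed between 0 and 2 TPM. Oligodendrocyte lineage markers summed to 1226 to 2215 TPM in footprints, mostly Olig1 and Olig2, with Sox10 at 0 to 1. Neuroblast and neuron markers summed to 567 to 1384 TPM in footprints, mostly Map2, with Dcx at 0 to 9. In bulk samples such as these, fewer cells of a type and less RNA per cell cannot be told apart. WT replicate 1 stood apart: its summed astrocyte markers were 1732 TPM in footprints, against 344 to 829 in the other WT footprint libraries, and its RNA sum was 1774, against 336 to 1048. KO replicate 1 had 954 in footprints and 1005 in RNA.

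The proteasome genes together took 0.959%, 0.987%, 1.10% and 1.10% of footprint counts in KO and 0.734%, 1.01%, 1.09% and 1.09% in WT. They took 0.537%, 0.537%, 0.719% and 0.713% of RNA counts in KO and 0.412%, 0.531%, 0.681% and 0.750% in WT. Every footprint library but WT replicate 1 gave the complex more of its counts than any RNA library did. Within each assay the KO and WT shares overlapped, and WT replicate 1 was the lowest library in both.

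**Figure D1:**
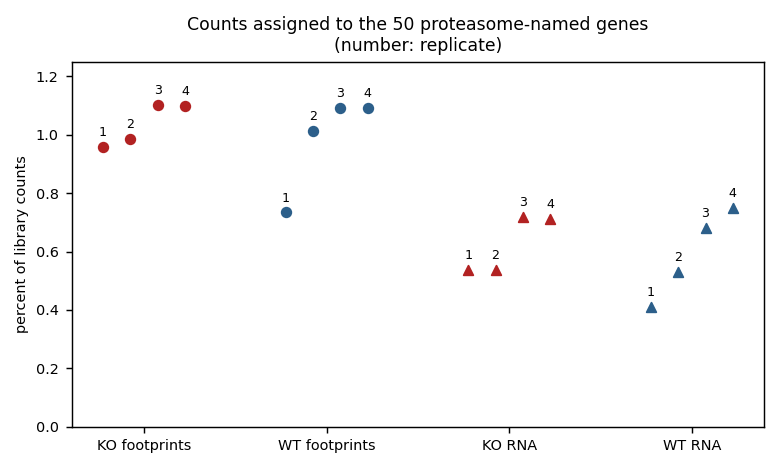
Share of each library's counts, in percent, that fell on the 50 proteasome subunit genes, by assay and genotype (KO left of WT), 1 point per library. Footprint shares were 1.04 ± 0.0747% in KO and 0.983 ± 0.170% in WT, and RNA shares 0.627 ± 0.103% in KO and 0.594 ± 0.152% in WT (SD, n = 4 each).

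The constitutive core had the highest and fairly even footprint levels. Its 14 subunits had a median footprint level of 398 to 432.5 TPM across the KO libraries and 319.5 to 421.5 across the WT libraries, and a median RNA level of 227 to 301.5 TPM in KO and 186.5 to 274.5 in WT. In any 1 footprint library the highest core subunit stood 2.07 to 2.82 times above the lowest, while in the RNA libraries that ratio was 3.11 to 4.79. Psmb1, a non-catalytic beta subunit (chr17:15475721-15498276), was the highest of the 14 in all 8 footprint libraries and in 6 of 8 RNA libraries. Its footprint TPM was 653, 637, 709 and 653 in KO and 562, 725, 645 and 671 in WT.

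Among the alpha subunits, which form the gated outer rings, Psma6 (chr12:55384222-55418459) had the highest footprints. Psma6 footprints were 607, 616, 596 and 586 TPM in KO and 471, 576, 550 and 575 in WT, while its RNA was 194, 187, 238 and 240 TPM in KO and 136, 187, 222 and 224 in WT. Footprint levels of Psma6 were thus above every one of its RNA levels by a wide margin in both genotypes. The lowest alpha subunit in footprints was Psma4 (284 TPM, mean of 8 libraries) or, in 3 libraries, Psma1. Psma1 (chr7:114264550-114276116) had the least RNA of the core in all 8 RNA libraries, with 117, 116, 132 and 113 TPM in KO and 80, 110, 113 and 102 in WT. Its footprints were 299, 300, 336 and 304 TPM in KO and 208, 290, 323 and 255 in WT, which overlapped those of Psma4, at 264, 272, 307 and 341 in KO and 229, 257, 311 and 293 in WT.

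The catalytic beta subunits carry the chymotrypsin-like (Psmb5), caspase-like (Psmb6) and trypsin-like (Psmb7) sites. Psmb5, the lowest beta subunit on average, had footprints of 294, 362, 367 and 389 TPM in KO and 265, 381, 353 and 339 in WT. Psmb6 had 384, 411, 425 and 390 in KO and 306, 388, 389 and 392 in WT, and Psmb7 had 420, 466, 453 and 439 in KO and 335, 464, 427 and 446 in WT. The ranges of the 3 catalytic subunits over libraries overlapped one another, but within each of the 8 footprint libraries Psmb5 was the lowest and Psmb7 the highest of the 3. Their interferon-induced replacements were far lower. Psmb10 had footprints of 34, 37, 35 and 23 TPM in KO and 32, 40, 26 and 38 in WT, Psmb9 lay between 3 and 8 TPM over the 8 footprint libraries, and Psmb8 between 0 and 3. Psmb8 had 39 footprint counts over the 4 KO libraries and 23 over the 4 WT libraries. Psma8 and Psmb11 had no more than 1 footprint count in any library.

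The median of the 17 Psm-named subunits of the 19S particle was lower than that of the core. The particle also holds Adrm1, a ubiquitin receptor, and Shfm1 (Sem1), a small lid subunit, which carry other symbols and are in none of the 19S values given here. Adrm1 had 94 to 144 TPM in footprints and 88 to 175 in RNA, and Shfm1 428 to 683 in footprints, above the other 19S genes in every library, and 0 to 80 in RNA. The median footprint level of the 17 was 192 to 223 TPM in KO and 156 to 213 in WT, and their median RNA level was 166 to 190 TPM in KO and 122 to 177 in WT. The core median over the 19S median was 2.02 ± 0.104 in KO footprints and 2.03 ± 0.144 in WT footprints, and 1.54 ± 0.176 in KO RNA and 1.57 ± 0.0462 in WT RNA (SD, n = 4 each). The footprint ratios, 1.92 to 2.23, lay above all 8 RNA ratios, 1.37 to 1.76, and the genotypes overlapped. When the same length was used for a gene in both assays, the RNA ratios were 1.22 to 1.51 and the footprint ratios 1.93 to 2.23. The separation thus remained.

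In the base, the ATPase Psmc6 (chr14:45329823-45349074) was the extreme case. Its footprints were 290, 295, 311 and 334 TPM in KO and 233, 360, 309 and 338 in WT, the highest of the 17 Psm-named 19S genes in 7 of 8 libraries. Its RNA was 47, 112, 63 and 50 TPM in KO and 51, 138, 68 and 60 in WT, the lowest of those 17 in 6 of 8 libraries. Replicate 2 had the highest Psmc6 RNA in both genotypes. Psmc4, another ATPase of the same ring, was the lowest of the 6 in footprints (177 TPM on average), with 160, 196, 205 and 191 in KO and 130, 188, 201 and 147 in WT. Its RNA of 200, 177, 231 and 266 TPM in KO and 122, 193, 238 and 227 in WT overlapped those footprint values.

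The non-ATPase base subunits hold the ubiquitin receptors and docking sites. Psmd4, a ubiquitin receptor, was the highest of them in footprints at 204 TPM on average. Psmd2 (chr16:20651122-20663414), a scaffold on which ubiquitin receptors dock, had footprints of 139, 169, 138 and 137 TPM in KO and 105, 162, 134 and 134 in WT. Its RNA was higher, at 234, 213, 240 and 252 TPM in KO and 167, 242, 207 and 258 in WT. The lid subunit Psmd3 (chr11:98682554-98695978) behaved likewise, with footprints of 110, 102, 130 and 132 TPM in KO and 86, 102, 122 and 119 in WT, against RNA of 202, 163, 236 and 246 in KO and 137, 159, 204 and 210 in WT. For both genes all RNA libraries but WT replicate 1 of Psmd2 exceeded every footprint library. Psmd14, the lid enzyme that removes the ubiquitin chain, showed the opposite, with footprints of 247, 246, 240 and 227 TPM in KO and 157, 234, 228 and 195 in WT and RNA of 89, 120, 116 and 95 in KO and 55, 153, 97 and 88 in WT.

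Activators were less even in footprints than the core, the 19S particle or the chaperones. Psme3, the PA28 gamma subunit of the nuclear cap, averaged 146 TPM in footprints, whereas Psme4, the PA200 cap (chr11:30771775-30881150), averaged 15.4. Psme4 footprints were 15, 17, 15 and 15 TPM in KO and 15, 19, 15 and 12 in WT. Its RNA was 14, 34, 13 and 8 TPM in KO and 21, 40, 13 and 7 in WT, highest in replicate 2 of both genotypes. Psme1, the PA28 alpha subunit, had footprints of 78, 88, 74 and 83 TPM in KO and 127, 90, 79 and 62 in WT. The highest of these was WT replicate 1, whose summed interferon and antigen presentation genes (18 genes) were also the highest. That sum was 1672 TPM in footprints, of which B2m was 1316, against 345 to 836 in the other WT libraries. The part of these genes in the Psme1 value was not tested. Psmf1, the PI31 regulator (chr2:151716062-151744199), had footprints of 62, 64, 60 and 55 TPM in KO and 59, 55, 52 and 46 in WT, and RNA of 50, 50, 59 and 57 in KO and 63, 52, 60 and 58 in WT.

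The assembly chaperones, which are not part of the finished complex, had lower and very even footprint levels. The 3 base chaperones had a median footprint level of 62 to 71 TPM in KO and 61 to 66 in WT, and the 4 core chaperones of 63.5 to 81.5 in KO and 43 to 74 in WT. Psmd10 (gankyrin, chrX:140948425-140956711) had footprints of 71, 72, 63 and 67 TPM in KO and 61, 76, 62 and 66 in WT, and RNA of 28, 35, 25 and 20 in KO and 20, 26, 20 and 28 in WT. Psmd9 had footprints of 82, 62, 70 and 60 TPM in KO and 65, 61, 59 and 68 in WT, so it sat beside Psmd10 in footprints. In RNA it was higher than Psmd10, at 73, 43, 62 and 66 TPM in KO and 44, 47, 61 and 60 in WT. Of the core chaperones, Psmg4 was the highest on average (75.6 TPM) and Psmg1 the lowest (60.1 TPM), with overlapping library ranges.

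**Figure D2:**
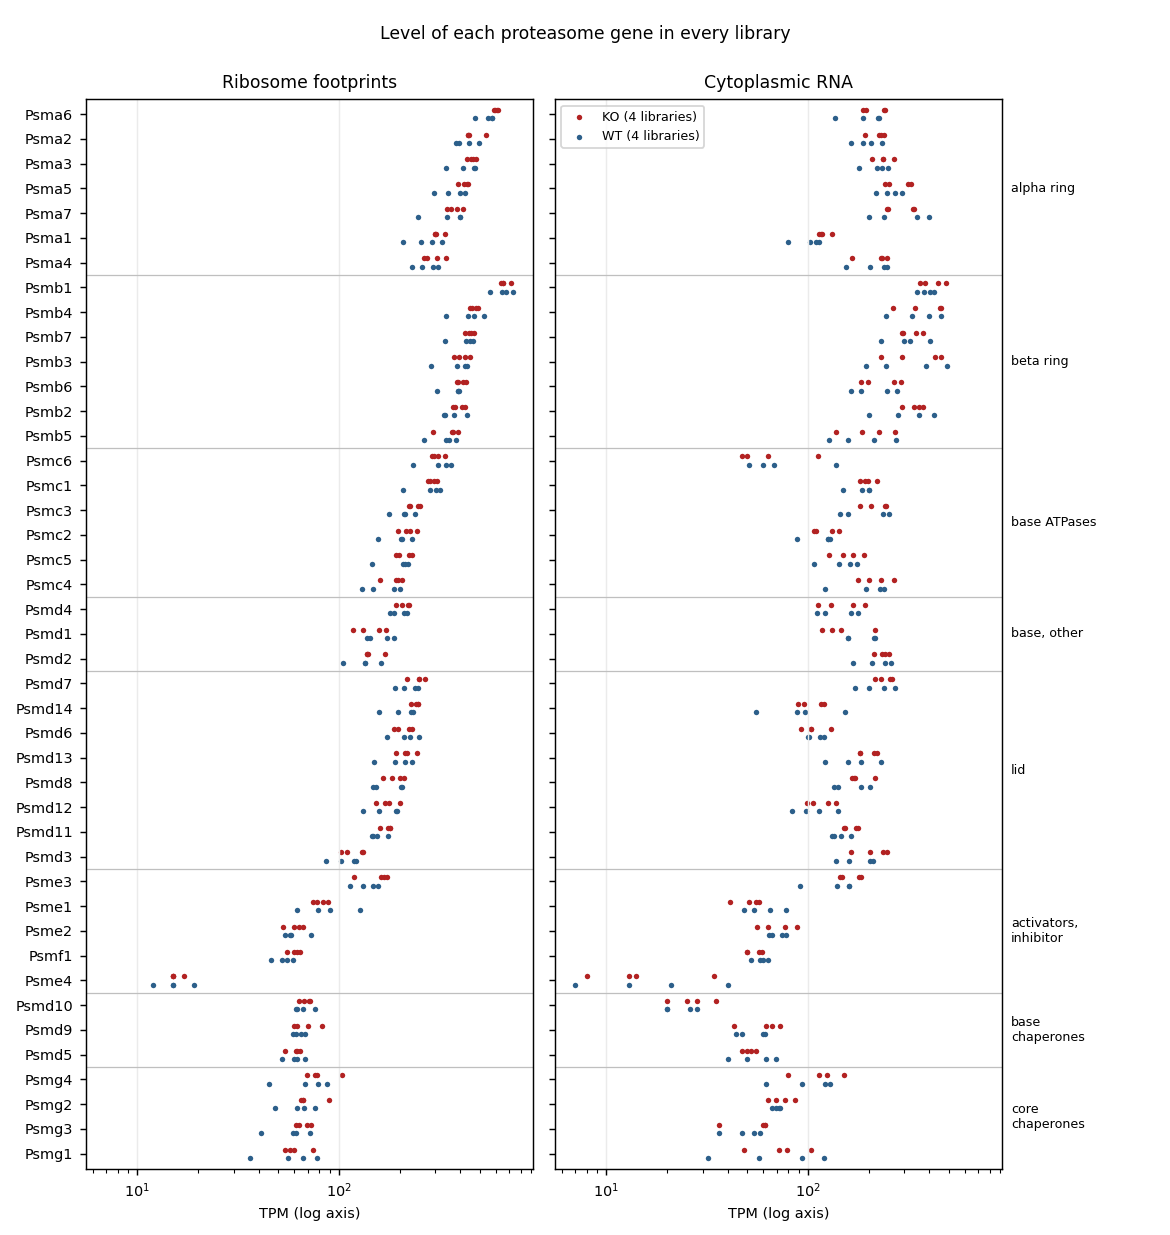
Level of constitutive core, 19S, activator, inhibitor and chaperone genes in TPM on a log axis, by subcomplex, in footprints (left panel) and RNA (right panel). KO libraries are in red above WT libraries in blue, 1 point per library. Core subunits sit highest, 19S subunits below them, and chaperones and most activators lower. Psmc6 stands at the top of the 19S genes plotted in footprints and near the bottom in RNA. Immunoproteasome and tissue-restricted genes, Psmc3ip and Psme2b are not drawn.

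Evenness was measured in each library as the SD of log2 TPM across the genes of a subcomplex, where 0 would mean equal levels. For the core it was 0.291 to 0.361 in KO footprints and 0.284 to 0.385 in WT footprints, against 0.437 to 0.543 in KO RNA and 0.458 to 0.617 in WT RNA. Every footprint library was more even than every RNA library, and the genotypes overlapped in both assays. With 1 length per gene in both assays, the ranges were 0.283 to 0.385 in footprints and 0.424 to 0.588 in RNA. They still did not overlap. The median alpha level over the median beta level was 0.965 to 1.03 in KO footprints and 0.889 to 1.08 in WT footprints, against 0.640 to 0.909 in KO RNA and 0.533 to 0.849 in WT RNA. The 2 rings were therefore near equal in footprints, and the beta ring was higher in RNA.

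The 17 genes of the 19S particle did not separate in the same way. Their SD was 0.351 to 0.423 over the footprint libraries and 0.311 to 0.652 over the RNA libraries. The overlap came from replicate 2, whose RNA gave 0.343 in KO and 0.311 in WT, while the other 6 RNA libraries gave 0.536 to 0.652. Chaperones were more even in footprints, at 0.0878 to 0.280 against 0.348 to 0.657 in RNA for the core chaperones, and 0.0680 to 0.306 against 0.286 to 0.888 for the base chaperones, whose ranges overlapped. Activators ranged from 1.05 to 1.30 in footprints and 0.774 to 1.68 in RNA. Core and 19S taken as 1 set of 31 genes gave 0.607 to 0.707 in footprints and 0.460 to 0.736 in RNA, so for these 31 genes, which leave out Adrm1 and Shfm1, the assays overlapped.

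Other multi-subunit complexes were set beside these. TRiC, the ring chaperonin that folds actin and tubulin (8 genes), gave 0.205 to 0.310 in footprints and 0.394 to 0.636 in RNA. The translation factor eIF3 (13 genes) gave 0.381 to 0.474 in footprints and 0.603 to 1.35 in RNA. The COP9 signalosome (9 genes), a relative of the lid, overlapped, at 0.780 to 1.06 in footprints and 0.639 to 1.28 in RNA. Its list holds the paralogs Cops7a and Cops7b, which need not be equal. Cops7b was the lowest gene in all 8 footprint libraries, at 21 to 35 TPM, so this spread is not a measure of fixed stoichiometry. The narrower footprint spread of the core was therefore shared with TRiC and eIF3 and was not particular to the proteasome. Footprint and RNA libraries were prepared by different protocols, and the contribution of amplification to the RNA spread was not tested.

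**Figure D3:**
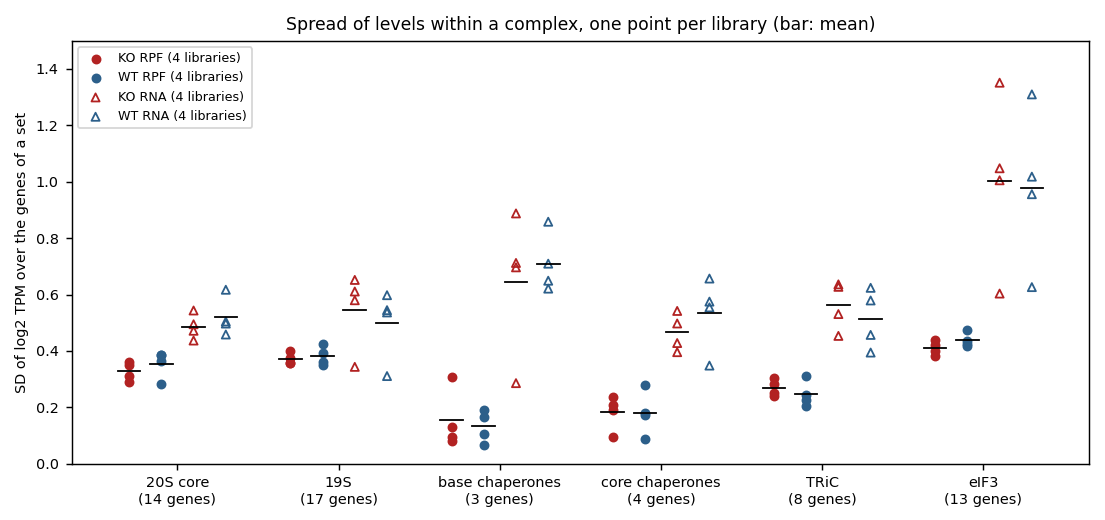
SD of log2 TPM across the genes of each set, 1 point per library, footprints as circles and RNA as triangles, KO in red left of WT in blue, with bars at group means. In the 20S core, TRiC and eIF3 every footprint library lies below every RNA library, and in the 19S particle 2 RNA libraries, replicate 2 of each genotype, lie below all footprint libraries.

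Footprints were then set against RNA gene by gene over all 16 libraries, with edgeR's quasi-likelihood test and Benjamini-Hochberg adjustment over 10863 genes at 0.05. The footprint and RNA library of a culture were treated as independent. Of the 46 proteasome genes tested, 39 were higher in footprints and 2 were lower, whereas 27.1% of all genes were higher and 38.8% lower. The median log2 difference was 0.86 for the proteasome genes and -0.22 for all genes, 1.08 apart. The same comparison on log2(TPM + 1), with limma, called 20 proteasome genes higher and 3 lower, with medians of 0.33 and -0.42, 0.74 apart, where 16.9% of all genes were higher and 45.9% lower. Direction relative to all genes was the same on both scales, but the number called was not. The footprint and RNA values also differ in the lengths that the TPM step divided by.

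Differences on counts were larger for genes with a shorter length, as implied by the footprint columns. The Spearman correlation with that implied length was -0.51 over 43 members and -0.52 over the 4287 genes with a length. Genes are not independent replicates, and count and length come from the same libraries. The alpha genes had implied lengths of 0.663 to 0.756 of the median gene, against 2.98 for Psmd1, 2.84 for Psmd2 and 1.62 for Psmd3; the part of length in the differences below was not tested. The alpha ring had the highest median difference of the 20S and 19S classes. All 7 of its genes were called higher, with a median log2 difference of 1.45, led by Psma6 (2.01, SE 0.16), Psma1 (1.88, SE 0.14) and Psma2 (1.64, SE 0.14). All 7 constitutive beta genes were also higher, with a median of 0.88, and so were both immunoproteasome genes tested, Psmb9 and Psmb10. On TPM 6 of 7 alpha genes, 4 of 7 beta genes and 0 of the 2 immunoproteasome genes passed. Of the ATPases 4 of 6 were higher on both scales, with a median of 0.79. Psmc6 had the largest difference of all proteasome genes, 2.43 (SE 0.21, edgeR adjusted p = 1.33e-07) on counts and 2.15 on TPM. Its TPM ratio of footprints to RNA was 6.17, 2.63, 4.94 and 6.68 in KO cultures and 4.57, 2.61, 4.54 and 5.63 in WT cultures, above 1 in all 8 and lowest in replicate 2. Psmc4 (0.06) and Psmc3 (0.36, edgeR adjusted p = 0.0805) did not pass.

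Lid genes were higher in 7 of 8 cases on counts (3 of 8 on TPM), with a median of 0.44, led by Psmd14 (1.55). The exception, Psmd3, was lower, at -0.57 (SE 0.16, edgeR adjusted p = 0.00664). In the non-ATPase base Psmd4 was higher, Psmd2 was lower at -0.54 (SE 0.15, edgeR adjusted p = 0.00567) and Psmd1 did not pass (0.03, SE 0.12). Both lower calls held on TPM, at -0.77 for Psmd3 and -0.69 for Psmd2, and the Psmd3 ratio of footprints to RNA lay between 0.537 and 0.642 in the 8 cultures. The activator genes were higher in 4 of 5 cases (1 of 5 on TPM, Psme1), with a median of 0.46 on counts, but on TPM Psme2 (-0.22) and Psme3 (-0.03) turned negative without passing the test. Psme4 did not pass (-0.10, SE 0.28).

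All 3 base chaperones were higher on counts and Psmd10 alone on TPM, and it led them with 1.93 (SE 0.14) on counts and 1.40 on TPM. Psmd10 overlaps Atg4a in the annotation, and since strand was not stated for the counting its value is uncertain, as are those of Psma4, Psmd1, Psme1, Psme4 and Psmf1, which also overlap other genes. Of the core chaperones 3 of 4 were higher on counts, Psmg3 with 1.71 (SE 0.19), Psmg4 with 1.03 and Psmg2 with 0.38, while Psmg1 did not pass (0.06, SE 0.28). On TPM Psmg3 no longer passed (0.28), Psmg2 turned negative (-0.10) and Psmg4 was called lower (-0.51, limma adjusted p = 0.0293). Psmg4 and Psmg3 were the genes whose implied length differed most between the assays. Their RNA lengths were 0.352 and 0.383 of the footprint lengths, against 0.651 to 0.940 for the other members with a value. Psmg3 stayed positive on both scales but lost its call, while Psmg4 changed direction with the scale. TRiC had 7 of 8 genes called higher (median 0.64), eIF3 7 of 13 higher and 3 lower (0.52), and COP9 5 of 9 higher and 1 lower (0.62). Psmc3ip, the member by spelling alone, was also higher on counts (0.92).

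The genotype comparison asks whether loss of Fmr1 changes mRNA levels and translation, and no proteasome gene passed the test. In footprints 0 of 46 were called by edgeR, where 0.0349% of 11472 genes were (0.0262% higher and 0.00872% lower). In RNA 0 of 46 were called, where 0.00901% of 11097 genes were, and for translational efficiency (footprints relative to RNA, tested as an interaction) 0 of 46 and 0% of 10863 genes were. No member reached an unadjusted p under 0.05 in any of the 3 comparisons, against 4.59% of all genes in footprints, 1.87% in RNA and 0.129% in translational efficiency. DESeq2 also called 0 members. The highest footprint log2 differences were 0.25 (SE 0.35) for Psmc3ip, 0.22 (SE 0.17) for Psmd14, 0.18 (SE 0.16) for Psma1 and 0.18 (SE 0.24) for Psmg4. In RNA the highest were 0.30 (SE 0.36) for Psmg4, 0.28 (SE 0.27) for Psme3, 0.26 (SE 0.29) for Psmd3 and 0.26 (SE 0.22) for Psma1.

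The differences leaned one way without passing. In footprints 37 of 46 members had a positive KO over WT difference, with a median of 0.09 against 0.01 for all genes, and in RNA 35 of 46, with a median of 0.12 against 0.01. All 14 core genes were positive in both assays, with ring medians of 0.10 (alpha) and 0.07 (beta) in footprints and 0.16 and 0.09 in RNA. Without WT replicate 1 the medians were -0.02 in footprints (20 of 46 positive) and -0.03 in RNA (14 of 46 positive). With both libraries numbered 1 left out and same-numbered libraries paired, they were -0.01 (19 of 46) and 0.02 (29 of 46). The RNA median also fell to 0.01 without KO replicate 4 (25 of 46) and 0.03 without KO replicate 3 (29 of 46), so the lean depended on which libraries were used. Within footprint libraries of 1 identifier length, the median was 0.20 with 5 nt (42 of 46 positive), where WT replicate 1 belongs, and -0.03 with 8 nt (18 of 46 positive). TRiC was positive in 8 of 8 footprint differences, with a median of 0.13.

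The TPM ranges of the genotypes failed to overlap for 1 of 46 members in footprints, Psma6, where 1.26% of all genes did, and for 0 of 46 in RNA, where 0.928% did. The fitted footprint difference of Psma6 was 0.13 (SE 0.13), with a 95% interval of -0.14 to 0.39. The lowest differences were in Psmb9 (-0.30 in footprints, -0.39 in RNA), Psmd1 (-0.17 and -0.27) and Psme1 (-0.13 and -0.23), followed by Psmb10 in footprints (-0.10) and Psme4 in RNA (-0.19). Psmd1, a docking scaffold of the base, had footprints of 132, 171, 117 and 158 TPM in KO and 188, 138, 172 and 143 in WT, which overlapped. Psmb8, Psmb9, Psmb10, Psme1 and Psme2 are interferon-induced. In footprints WT replicate 1, which had the highest interferon and antigen presentation sum, was the highest WT library for Psmb9 and Psme1 but not for Psmb10 or Psme2, and Psmb8 was at 0 to 1 TPM in all WT libraries. For translational efficiency the largest differences were 0.34 in Psmc3ip (SE 0.75) and 0.27 in Psmf1 (SE 0.22, unadjusted p = 0.243 with edgeR), followed by Psme4 (0.20) and Psmc6 (0.15), and the lowest were -0.13 in Psmd3 (SE 0.32), -0.12 in Psmd10, -0.12 in Psmg4 and -0.11 in Psmb1. With these errors a translational efficiency change of the order seen in most members was not detectable.

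More proteasome genes passed the test between replicates 3 and 4 and replicates 1 and 2 than between genotypes. Footprint libraries with 8 nt identifiers (replicates 3 and 4) were set against those with 5 nt identifiers (replicates 1 and 2), with genotype in the model, so identifier length and any other difference between these cultures cannot be told apart. Of 46 members 3 were higher and 0 lower, where 7.56% of all genes were higher and 11.5% lower. The 3 were the alpha subunit Psma4 (0.43, edgeR adjusted p = 0.0394) and the lid subunits Psmd3 (0.47, edgeR adjusted p = 0.0360) and Psmd8 (0.48, edgeR adjusted p = 0.0323). In all 41 of 46 were positive, with a median of 0.27 against 0.00 for all genes. The share of members called by edgeR, 6.52%, was near that of all genes. DESeq2 called 12 of 46 higher and 0 lower, where it called 13.5% of all genes higher and 16.2% lower, so the count depended on the tool. With edgeR between 0 and 3 members were called when 1 library was left out, with 0 without KO replicate 2, 3 or 4 or WT replicate 3 or 4, and 1 without KO replicate 1.

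The RNA libraries, which carry no such identifiers, gave more calls for the same split. This contrast of replicates 3 and 4 over replicates 1 and 2 was added after the data had been seen. It treats the 8 libraries as independent, as does the footprint contrast, although same-numbered KO and WT libraries deviated together (RNA correlations 0.481 to 0.613, footprint correlations 0.379 to 0.540), so there were 2 replicate numbers on each side and the p-values of both contrasts are too small. Of 46 members 23 were higher and 1 was lower, where 12.1% of all genes were higher and 13.1% lower, and the median was 0.55 against -0.03. All 7 constitutive beta genes were higher, as were 4 of 7 alpha genes, 4 of 6 ATPases, 4 of 8 lid genes, Psmd4, Psme2, Psmg1 and Psmc3ip. Psmb3, a structural beta subunit, had RNA of 425 and 457 TPM in KO replicates 3 and 4 and 386 and 489 in WT replicates 3 and 4, against 291 and 230 in KO replicates 1 and 2 and 194 and 243 in WT replicates 1 and 2. The 2 sets of libraries did not overlap, and the difference was 1.14 (SE 0.18, edgeR adjusted p = 0.00829). Psmg1, a core chaperone, differed by 1.19 (SE 0.28) and Psmb5 by 0.95 (SE 0.19). Psme4 was the 1 member that was lower, at -1.15 (SE 0.33, edgeR adjusted p = 0.0354). The number called higher fell to 8 without KO replicate 2, 12 without KO replicate 4, 9 without WT replicate 3 and 7 without WT replicate 4.

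Some markers of cell state moved with the same split. Summed astrocyte markers were 336 to 481 TPM in RNA of replicates 3 and 4 and 1005 to 1774 in replicates 1 and 2, with 4 of 6 tested genes lower, and 344 to 543 against 829 to 1732 in footprints, with 5 of 7 lower. Summed stem and progenitor markers were 3384 to 5539 in RNA of replicates 3 and 4 and 4966 to 9286 in replicates 1 and 2. These ranges overlapped, and 3 of 11 tested genes were lower. Oligodendrocyte lineage sums in RNA also overlapped, at 1669 to 2476 against 1625 to 2307. Ependymal sums leaned the other way, at 31 to 67 against 21 to 34. Interferon and antigen presentation genes summed to 220 to 380 in RNA against 426 to 1008, with 2 of 13 tested genes lower. B2m alone had 75 to 531 TPM over the RNA libraries. The part of these differences in the proteasome values was not tested.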

How the data were processed

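Ribosome footprints and cytoplasmic RNA of cultured KO and WT adult neural stem cells were analysed from tables the authors deposited: per the labels, RSEM estimated counts (expected counts), already whole numbers, and a score per gene, which the authors deposited as TPM rounded to whole numbers. Per the submitters' processing notes, RSEM 1.2.11, TopHat2 2.0.9, cutadapt 1.7.1, bedtools 2.22.0, Bowtie2 2.1.0, SAMtools 0.0.19 and the mm10 build were used. RSEM shares reads among similar sequences, so values of members with processed pseudogenes are uncertain. Strand was not given in the sources used here.

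In total 27 rows with no gene symbol, holding 0.244 to 0.422% of counts, were left out. Genes passing edgeR's filterByExpr were TMM-normalised within an assay and tested with edgeR 4.0.16 (quasi-likelihood, R 4.3.3), with Benjamini-Hochberg adjustment over all tested genes at 0.05; KO over WT in RNA used genotype, in footprints genotype and identifier length. Alternatives used DESeq2 1.42.0, limma 3.58.1 on log2(TPM + 1) or log2(TPM + 0.5), no filter, a replicate block (by culture in fits over both assays), and leaving out each culture. Leaving out a culture removes 1 library in fits of a single assay, and its footprint and RNA library in fits over both. Intervals cover 95 percent. Procedures were tested on simulated data with independent libraries. Those lacked the correlation between same-numbered libraries and between the assays of a culture. That check therefore says nothing on p-values affected by either. KO and WT libraries with the same number deviated together (r 0.481 to 0.613 in RNA, 0.379 to 0.540 in footprints). The main fits did not use this pairing, which entered only with the replicate block. Members and gene lists were chosen with earlier results of these data known. Genes named were members past the threshold, summarised by class where many, the highest and lowest footprint level of each class, the 4 largest and 4 smallest differences of each genotype comparison and 5 of footprints over RNA, catalytic and untested members, and partners past the threshold. With independently isolated cultures, p-values of KO over WT within an assay measure the spread between cultures. Fits over both assays treated the footprint and RNA library of a culture as independent, although they came from a split lysate. Whether counts were collapsed on identifiers was not given in the sources used here. Some results for partner genes are not reported here.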

Additional observations from a re-analysis of the deposited data

Results flagged for a closer look

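Over 200 groups of 4 libraries, 9 had 1 library set far from the other 3 (Dixon's criterion at 95%), where chance alone gives about 1 in 20, or 10. In KO footprints, Psma1 had 336 TPM in replicate 3 against 299 to 304 in the others. Psma2 had 536 in KO replicate 2 against 435 to 440, Psmd2 had 169 in KO replicate 2 against 137 to 139, Psme4 had 17 in KO replicate 2 against 15 in each of the others, and Psmg2 had 89 in KO replicate 4 against 65 to 66. In WT footprints, Psmb6 had 306 TPM in replicate 1 against 388 to 392. In KO RNA, Psmd8 had 214 TPM in replicate 3 against 166 to 171, and Psmg3 had 36 in replicate 2 against 60 to 61. In WT RNA, Psmc2 had 88 TPM in replicate 1 against 125 to 129.

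Psmf1 was higher in KO than WT in footprints and lower in RNA in all 4 same-numbered pairs. The interaction itself was 0.27 on the log2 scale and was not called by edgeR (adjusted p = 1).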

How the results depend on the processing

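No member was called in KO over WT under any setting run. On leaving out 1 culture, with its footprint and RNA library, the translational efficiency median moved between -0.16 and 0.13. The footprints over RNA median then moved between 0.75 and 0.92, with 31 to 40 called higher. On TPM that median was 0.33 with either pseudocount, with 20 called higher, and 4 members reversed: Psmg2 (-0.10 with a pseudocount of 1, -0.11 with 0.5), Psme3 (-0.032 and -0.032), Psme2 (-0.22 and -0.22) and Psmg4 (-0.51 and -0.51). For 8 nt over 5 nt identifiers DESeq2 called 12 members (13.5% of all genes higher) and no filter called 1, and leaving out 1 library called 0 to 3. For RNA replicates 3 and 4 over 1 and 2, leave-outs called 7 to 23 higher and 0 to 1 lower. The cause of these changes was not tested. With the replicate block the KO over WT medians were 0.10 in footprints, 0.14 in RNA and -0.03 in translational efficiency, and footprints over RNA gave 40 higher and 2 lower with a median of 0.90; the block changed no KO over WT call, and could not be used between replicates 3 and 4 and replicates 1 and 2, where replicate numbers are nested. An alternative with annotated coding lengths was not run. Rounded TPM limits Psmb8, Psmb9 and Psme4, where 1 unit is a large part of the value.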

Other observations

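Genes that work beside the proteasome were also spread in footprints over RNA. Of 19 partners tested, 9 were higher and 4 lower on counts, where 27.1% of all genes were higher and 38.8% lower. Calls for partners on TPM are not given here. Pomp, the maturation factor that carries the beta ring into the half-built core, had the largest difference, 3.33 (edgeR adjusted p = 2.14e-09), with footprints of 777 ± 34.8 TPM in KO and 711 ± 109 in WT, and RNA of 172.5 ± 19.5 in KO and 149 ± 42.3 in WT (SD over 4 libraries each). The proteasome-bound deubiquitinases Usp14 (1.80) and Uchl5 (1.57), the 19S-associated thioredoxin Txnl1 (1.61), the nuclear import adaptor Akirin2 (0.80), the ubiquitin ligase Ube3a (1.19), the shuttle factors Ubqln1 (0.63) and Ubqln2 (0.96) and Zfand5 (0.86) were higher as well. Lower ones included Nfe2l1, the transcription factor of proteasome genes (-0.90), the ligase Ube3c (-1.50) and the shuttle factor Ubqln4 (-0.71). Not all higher calls were plain in TPM. Akirin2 had 138 to 207 in footprints, which overlapped its 117 to 195 in RNA. Usp14, at 130 to 202 in footprints against 36 to 104 in RNA, did not overlap. None of these partners was called in KO over WT.

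Of the genes that encode ubiquitin, Ubb was lower in footprints than in RNA (-1.27) and Rps27a was higher (2.27). Ubiquitin genes hold near-identical coding units, so how reads were shared among them makes both values uncertain. Of the activating enzymes, Uba6 was higher (2.09) and Uba1 did not pass (-0.21).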
